A study of Saccharomyces cerevisiae with 4 samples.

Results

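Transcript abundance was described in wild-type budding yeast (Saccharomyces cerevisiae) growing exponentially in rich glucose medium, from the signals of the 2 wild-type arrays of a study with 4 arrays in all. The wild-type strain, BY4742, is haploid, has the alpha mating type and lacks LEU2, LYS2 and URA3. It was grown with shaking at 30 °C in 5 ml of YPD to an optical density of 0.7, and 200 ng of total RNA was labelled for a one-colour Affymetrix yeast array. The other arrays hold 1 culture each of an ada1 deletion strain and a gcn5 deletion strain made in BY4742 by replacing the gene with the kanMX drug resistance marker, grown in the same medium, and they are used here only as a second look at differences between the wild-type arrays. Separate cultures are not stated for the wild-type arrays, and the spread between them may be technical. With 1 group of 2 arrays no test between conditions is possible, and every comparison below is a description.

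A yeast cell in glucose ferments the sugar to ethanol even in the presence of oxygen, and much of its messenger RNA serves growth: the ribosome, the factors that run it, and the enzymes of glycolysis. Glucose represses the genes for other sugars, for respiration of non-fermentable carbon and for gluconeogenesis. Rich nitrogen sources similarly hold down the genes for poor ones, and haploid cells keep the meiotic programme and the genes of the opposite mating type off. Many yeast genes are left from an ancient genome duplication as pairs of paralogs, 1 of which is often the form used in glucose.

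The deposited value for a probe set, the group of short probes that reads 1 transcript, is a MAS5 signal on a linear scale. Genes were ordered by the mean of log2 signal over both arrays, for 5449 genes with a named probe set. The ranks are ranks of probe-set brightness, which depends on the probes as well as on the amount of transcript, so signals of different genes are set side by side without a fold. Genes in the top 10 percent of the order, with a mean signal of at least 3202, are called bright (545 of 5449 genes, 10 percent). Genes under the 20th percentile, a mean signal of 157, are called near background (1090 genes, 20 percent), because the files hold no detection calls. Signals below this level have no reliable order, and genes named there are examples, not a ranking. Pairs of signals are given for replicates 1 and 2 in that order, and a single signal is the mean of both on the log2 scale unless said otherwise.

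The arrays differed in range before any gene was considered. Median probe-set signals were 413 and 494, while the highest signals were 23746 and 11804. On replicate 1, 149 genes lay within 2-fold of the highest signal, and on replicate 2 260 did. The bright genes of each array (its top 10 percent) held 62.4 percent of the summed signal on replicate 1 and 50.6 percent on replicate 2. The array of the ada1 deletion strain reached 21989 and that of the gcn5 deletion strain 12244, so each wild-type array has a deletion array of similar range.

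The strain markers matched the label. LEU2 (a leucine synthesis enzyme) gave signals of 1.74 and 23.2, LYS2 (a lysine synthesis enzyme) 0.843 and 9.36 and URA3 (a uracil synthesis enzyme) 2.83 and 2.54. All 3 deleted genes were near background, and these values show the signal a probe set gives without its transcript. HFI1, also called ADA1, gave 246 and 279.8 and GCN5 gave 309 and 385, and both genes are intact in wild type. All 4 genes specific to alpha cells were bright: the alpha-factor genes MF(ALPHA)1 at 11518 and 8012 and MF(ALPHA)2 at 10769.5 and 8181, the alpha-agglutinin gene SAG1 at 6340.2 and 5328, and the a-factor receptor gene STE3 at 3645 and 3971. All 7 genes specific to a cells were near background. Among them, the a-factor genes MFA1 and MFA2 gave 34.9 and 27.0 (MFA1) and 22.8 and 27.5 (MFA2), the alpha-factor receptor gene STE2 49.5 and 53.9, and the a-factor exporter gene STE6 65.9 and 60.5. The protease gene BAR1 gave 45.3 and 41.7, the a-agglutinin subunit gene AGA2 15.1 and 9.40, and ASG7 12.5 and 7.38. The highest a-specific signal on either array was 65.9 (STE6), and the lowest alpha-specific signal was 3645.

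The brightest genes were those of the ribosome. Of the 20 genes of highest mean signal, 12 encode cytosolic ribosomal proteins, 3 translation factors and 3 glycolytic enzymes. RPS31, a ribosomal protein made as a fusion with ubiquitin, led the order at 23746 and 11428, followed by RPS17A at 21135 and 11428 and TMA19, a conserved ribosome-associated protein, at 21479 and 11184. Membership of the top 20 was not stable, as the 20 brightest genes of each array shared only 8 members. Over the 20 genes of highest mean signal Spearman's rho between the arrays was -0.053 (n = 20 genes). Choosing genes by the mean of the same arrays lowers this rho by itself, so it does not measure how stable their order is.

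The translation factors among the 20 were EFT2 (elongation factor 2, 21141 and 11250.2), YEF3 (the fungal elongation factor 3, 19397 and 11508) and TEF2 (elongation factor 1A, 20379.7 and 9886). EFT2 and TEF2 are read by probe sets that near-identical copies can share. The glycolytic enzymes were TPI1 (triose phosphate isomerase, 20679.9 and 10531), CDC19 (pyruvate kinase, 20708 and 9932) and GPM1 (phosphoglycerate mutase, 20589 and 9604). Actin, ACT1, was the 7th gene at 21178 and 10508. The other ribosomal protein genes of the 20 were RPS21A, RPS19B, RPL16B, RPS4B, RPL30, RPS15, RPS8A, RPL3, RPL32 and RPS6B, with mean signals from 14085 (RPS6B) to 15015 (RPS21A). Of these, RPS4B, RPS8A and RPS6B are also read by shared probe sets. RPS8A gave 20364.5 and 9922 there, and 15510 and 10464 on its own probe set. In larger top groups, which include the brightest 20, more members were shared, 82 by the 100 brightest of each array and 519 by the 545 brightest. Larger groups tend to share more members whatever their inner order, so these counts do not show a steadier order below the top.

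Ribosomal protein genes were bright almost without exception. Of 127 measured, 124 were bright, none was near background, and the median signal was 11148, against 460.0 over all genes. Together they held 23.3 percent of the summed signal of all genes on replicate 1 and 16.2 percent on replicate 2. The 3 that were not bright were singled out after their values were seen: RPL15B gave 584 and 771, RPL41A 1007 and 976 and RPS9A 2541 and 3216. RPL15B and RPS9A have a bright partner of nearly the same sequence, given with the paralogs below.

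The same was not seen for the other ribosome. Among 66 nuclear genes taken by their names alone for mitochondrial ribosomal proteins, 0 were bright and 1 was near background, with a median of 627. The brightest, MRPS12, gave 2231 and 2478. Factors that assemble the cytosolic ribosome lay between, with a median of 1199. Of 62, 8 were bright (12.9 percent, close to the 10 percent of all genes) and none was near background. GAR1 and NHP2, proteins of the particles that make pseudouridine in ribosomal RNA, gave 5249 and 7034 (GAR1) and 4931 and 6139.9 (NHP2), and the nucleolar proteins NOP1 and NOP58 gave 6211 and 5619 (NOP1) and 6469 and 4635 (NOP58). Of 29 translation factors, 19 were bright and 1 was near background. That 1 was HEF3, the little-used copy of elongation factor 3, at 54.6 and 77.5.

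**Figure D1:**
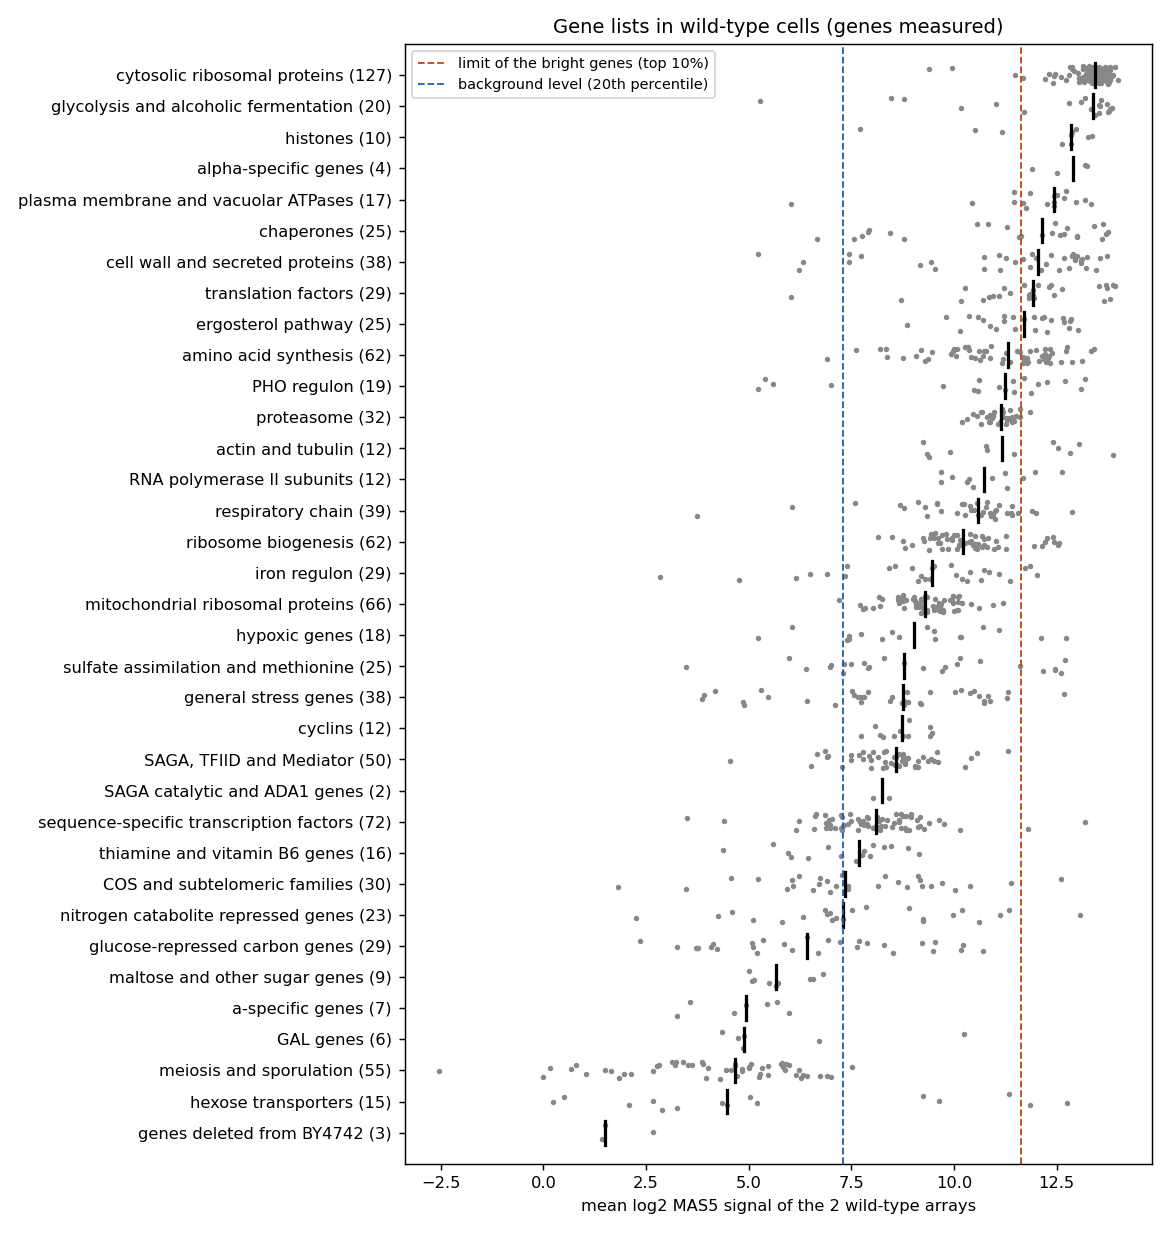
Mean log2 signal of each gene (grey points) in 35 gene lists, ordered by the list's median (black bar), with the number of genes measured in brackets; vertical scatter within a row has no meaning. Ribosomal protein genes (median 11148 on the linear scale) and glycolysis (median 10708) lie mostly right of the limit of the bright genes, and the meiotic, a-specific and GAL genes mostly left of the background level.

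Glycolysis and alcoholic fermentation came next. Of 20 genes measured, 15 were bright, with a median of 10708. After TPI1, CDC19 and GPM1 came ENO2 (enolase) at 19735 and 9808. The 5 that were not bright are GLK1 (glucokinase, 2029 and 2157), HXK1 (hexokinase 1, 1037 and 1294), PDC5 and PDC6 (minor pyruvate decarboxylases, PDC5 at 363 and 531 and PDC6 at 48.4 and 31.1) and PYK2 (a second pyruvate kinase, 329.8 and 376). Each of them has a counterpart for the same reaction that was bright.

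Glucose enters through hexose transporters, and here few members of a large family were above background. Only HXT3 (8139 and 5821) and HXT2 (3758 and 3594) were bright, HXT1 gave 2569.8 and 2610.4, and 10 of 15 transporters were near background. Of those, HXT15, HXT13, HXT14 and HXT10 had mean signals from 1.18 (HXT15) to 6.37 (HXT10). HXT3, HXT2 and HXT1 were singled out after their values were seen.

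Several other groups of growing cells were bright more often than the 10 percent of all genes. Of 17 proton pump genes 13 were bright, led by the plasma membrane pump PMA1 at 13074 and 8086 and the vacuolar pump subunit VMA3 at 12302 and 7166. Of 10 histone genes 7 were bright, with a median of 7395. The H2A gene HTA1 gave 13279 and 8418, and HTA2 gave 12313 and 7957 on a shared probe set and 4531 and 4753 on its own. The variant H2A gene HTZ1 2486 and 2173, the linker histone HHO1 1363 and 1583, and the centromeric histone CSE4 193 and 227. Those 3 were the histone genes that were not bright.

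Of 25 genes in the chaperone list 13 were bright and 1 was near background, led by SSA2 (Hsp70, 19347 and 9766), SSB1 (ribosome-associated Hsp70, 15998 and 11184, shared probe set), CPR1 (cyclophilin, 17624 and 8997) and SSB2 (16336 and 9505). The 13 include 3 chaperones of other compartments, HSP60 (8141 and 5772) and HSP10 (7158 and 5294) of mitochondria and KAR2 (9674 and 6935) of the endoplasmic reticulum. The heat-inducible SSA4 and SSA3 gave 219.8 and 214 (SSA4) and 167 and 214 (SSA3), and the stress-induced membrane protein HSP30 108 and 95.1. In the list of general stress genes 1 of 38 was bright and 9 were near background (23.7 percent, close to the 20 percent of all genes). The bright member was HOR7, which responds to high osmolarity, at 8238 and 5324. SIP18, PAI3, XBP1 and GRE1 were far below background and had mean signals from 14.6 (SIP18) to 28.9 (GRE1).

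Cell wall proteins were bright in 23 of 38 cases, led by the mannoproteins CCW12 (20077 and 9036), CWP2 (16551 and 7808) and ECM33 (12133 and 7785) and the glucanase-like SCW4 (15721 and 9243). The hypoxic wall protein gene DAN1, which oxygen represses, gave 25.8 and 53.9. In the pathway to ergosterol, the fungal membrane sterol, 13 of 25 genes were bright and none was near background. ERG2, ERG25, ERG11 and ERG10 led it, with mean signals from 7141 (ERG10) to 8328 (ERG2).

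Amino acid synthesis genes were bright in 28 of 62 cases although the medium supplies amino acids. The branched-chain enzyme ILV5 gave 13881 and 8571, the homoserine pathway enzymes HOM6 and HOM2 12866 and 8371 (HOM6) and 10469 and 7669.8 (HOM2), and the asparagine synthetase ASN1 8583 and 6574. The single member near background was ARG3, ornithine carbamoyltransferase, at 171 and 84.6. GCN4, the activator of these genes, which is controlled mainly at translation, gave 12627 and 6928 and was the brightest of 72 sequence-specific transcription factors. HAC1, the activator of the unfolded protein response, was the only other bright factor at 3427 and 3708.

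Genes of the PHO regulon, which is induced when phosphate runs low, were bright in 7 of 19 cases. The high-affinity phosphate transporter PHO84 gave 12610.3 and 7020.3, the polyphosphate synthesis subunits VTC1 and VTC3 10981 and 7055 (VTC1) and 4964 and 4955 (VTC3), and the secreted acid phosphatase PHO11, read by a shared probe set, 7387 and 6088. Near background were 4 list members (21.1 percent, close to the 20 percent of all genes). They were PHM7 (41.5 and 34.3), the kinetochore protein CTF19 (32.1 and 56.2), GIT1 (42.4 and 54.4) and PHM8 (115 and 146). In the iron regulon, 3 of 29 genes were bright (10.3 percent, close to the 10 percent of all genes). They were the reductase FRE1 (4874 and 3556), the oxidase FET3 (4051 and 3326) and the cell wall protein FIT2 (3867 and 2966).

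The groups of the transcription machinery lay at different levels. RNA polymerase II had a median above that of all genes (460.0), and the complexes and sequence-specific factors had medians below it. Of 12 RNA polymerase II subunit genes 3 were bright, with a median of 1669, led by RPB8 at 7067 and 5613. Among 50 genes of the SAGA, TFIID and Mediator complexes, with a median of 384, 0 were bright. Near background were 7 (14 percent, against 20 percent of all genes). The count near background was 0 to 12 with other background levels. The TATA-binding protein gene SPT15 was the highest of them at 2148 and 3048. Sequence-specific transcription factors had a median of 273, and 19 of 72 were near background (26.4 percent, close to the 20 percent of all genes). That count was 2 with the background at the 10th percentile or at the deleted genes, and 34 at the 30th. SIP4 and CAT8, activators of gluconeogenesis, gave 10.1 and 12.8 (SIP4) and 21.2 and 21.2 (CAT8). All 12 cyclin genes lay between the limits, at signals of 213 to 705.

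Proteasome genes kept within a narrow band. All 32 lay between 1174 and 3718 with 1 bright. That 1 was PRE6, a subunit of the core particle, at 3456 and 3999.7. Of 39 nuclear genes of the respiratory chain 3 were bright (7.69 percent, close to the 10 percent of all genes). They were the ATP synthase subunits ATP1 (8816 and 6336), ATP15 (4707 and 3600.1) and ATP2 (4015 and 3606). The 2 dim members of the chain were CYC7, the hypoxic cytochrome c, at 57.4 and 75.9 and NDE2, an external NADH dehydrogenase, at 10.4 and 17.2.

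At the other end of the order stood the meiotic genes. Of 55 genes of meiosis and sporulation 54 were near background and none was bright, with a median of 25.3. At the level of the deleted genes 26 were under it. SAE3, a recombination accessory factor, gave 0.226 and 0.129, its partner MEI5 1.47 and 0.672, GMC2 1.56 and 0.806 and SPS2 0.472 and 5.38. The meiotic regulators IME1 and IME2 gave 99.7 and 114 (IME1) and 91.4 and 69.1 (IME2). MSH5, a meiotic crossover factor, was the 1 gene above the limit, at 158 and 214.

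Genes for sugars other than glucose were also dim. All 9 maltose and related sugar genes were near background, none above a mean of 112. With the background level at the highest signal of a deleted gene (23.2) 0 of the 9 were under it, and at the 10th percentile 6. At the level of the deleted genes 1 GAL gene and 8 of the glucose-repressed genes below were under it. In the galactose pathway GAL1 (galactokinase) gave 86.8 and 128, GAL10 32.3 and 27.3, GAL7 30.5 and 27.7, GAL3 27.99 and 25.7 and GAL2 (the permease) 16.8 and 24.6. The exception was GAL80, the repressor of the pathway, at 1231 and 1193. Among 29 glucose-repressed genes of other carbon sources 18 were near background and none was bright. SFC1, a mitochondrial succinate-fumarate carrier, gave 9.45 and 2.74, and the beta-oxidation enzymes POT1 and POX1 gave 11.5 and 7.92 (POT1) and 12.5 and 13.9 (POX1).

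Nitrogen catabolite repressed genes were near background in 11 of 23 cases (5 with the background at the 10th percentile and 2 at the deleted genes), among them DAL80, DAL1, PUT4 and DAL4 with mean signals from 4.79 (DAL80) to 34.2 (DAL4). The exception at the top was ASP3-1, a secreted asparaginase of a tandem repeat, at 9907 and 7582 on a probe set that its copies share. Of 16 thiamine and vitamin B6 genes 7 were near background and none was bright.

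Gene families were also defined only by the letters of their names, a grouping made after the values were seen. Families such as RPS, RPL and HXT hold the same genes as the lists above, so a like order is not separate support. Of 90 families with at least 8 measured members, RPS, RPL, VMA (the vacuolar ATPase), ERG, TIF (translation initiation) and ADE (purine synthesis) had the highest medians, and 5 of 10 ADE genes and 11 of 15 VMA genes were bright. The lowest medians belonged to HXT, SPO (sporulation), GAL, DAL (allantoin use), RRT and FRE (metal reductases). In the SPO family, which reaches beyond the meiosis list, 13 of 18 genes were near background and 1 was bright. In the RAD family of DNA repair genes 16 of 29 were near background, and in the ATG family of autophagy genes 17 of 34.

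Genes without a standard name and genes at chromosome ends were dim more often. Of 499 genes with a systematic name only, 50.9 percent were near background, against 16.9 percent of 4950 named genes and 20 percent of all. Among genes that are the outermost 5 at a chromosome end in the RefSeq gene order, 63.3 percent of 98 were near background, and the share was 54.0 percent for the outermost 10 and 36.1 percent for the outermost 20. Of these 98 genes 3 were bright, PHO11 (7387 and 6088), COS2 (7509 and 5226) and YMR321C (3247 and 3478), and all 3 are read by shared probe sets. Subtelomeric genes belong to families of similar copies, and the part of shared probes in these shares was not tested.

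Paralog pairs were compared next, as the brighter member on each array. Of 139 pairs, 119 have a probe set for each gene, and 103 of these kept their order on both arrays. In 12 of the 119 a member is read by a shared probe set, which may also read its partner. Without those pairs, 96 of 107 kept their order. In 71 of the 119 pairs every signal of the brighter gene lay above every signal of its partner. Ribosomal protein pairs kept their order in 40 of 50 cases, with 13 without overlap, against 63 of 69 and 58 for the others. Of the 50, 9 involve a shared probe set. Without shared probe sets, 35 of 41 ribosomal protein pairs and 61 of 66 others kept their order. The choice of probe set can reverse an order. RPL14B gave 20493 and 9340 on its shared probe set, above RPL14A at 14812 and 8218, but 7168 and 6091 on its own. In 48 of the 50 ribosomal protein pairs both copies were bright, and the exceptions were RPL15A at 12919.7 and 8298 with RPL15B at 584 and 771, and RPS9B at 14985 and 9518 with RPS9A at 2541 and 3216.

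In the glucose pathway the pairs were widely separated. PDC1, the main pyruvate decarboxylase, gave 17670.5 and 8344, with PDC5 at 363 and 531 and PDC6 at 48.4 and 31.1. ADH1, the alcohol dehydrogenase that makes ethanol, gave 16898 and 8427, while ADH2, the form that consumes it and is glucose-repressed, gave 157 and 143 and ADH5 702 and 559. CDC19 at 20708 and 9932 stood above PYK2 at 329.8 and 376, GPM1 at 20589 and 9604 above GPM2 at 91.4 and 106, and HXK2 (hexokinase 2) at 11138 and 6894 above HXK1 at 1037 and 1294. None of these pairs overlapped between arrays.

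Other glycolytic pairs lay closer together. TDH3 (glyceraldehyde-3-phosphate dehydrogenase) gave 16015 and 7721 and TDH1 3253 and 3393, without overlap. ENO2 at 19735 and 9808 and ENO1 at 11259.9 and 7699 overlapped between arrays although ENO2 was the brighter on each, and so did the phosphofructokinase subunits PFK2 (13168 and 8074) and PFK1 (8458 and 6033). In translation, YEF3 stood at 19397 and 11508 with HEF3 at 54.6 and 77.5, and HYP2, the aerobic form of initiation factor 5A, at 15636 and 9111 with its hypoxic form ANB1 at 1050.2 and 1279.

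The H2B genes were nearly level. HTB1 gave 8030.0 and 6706 and HTB2 8267 and 6719, and these overlapped. HTA1 (13279 and 8418) was brighter than HTA2 on each array. Its signals overlapped those of HTA2's shared probe set (12313 and 7957) and not those of HTA2's own probe set (4531 and 4753). The H3 genes did not overlap, with HHT2 at 8646 and 7412 and HHT1 at 6968 and 5781. Among chaperones HSC82 (13828 and 8498) was brighter than the heat-inducible Hsp90 HSP82 (1588 and 1459). SSE1 (9556 and 7018) was brighter than SSE2 (272 and 217), and SSA2 (19347 and 9766) than SSA1 (7717 and 4149.5), which was itself bright. SSB1 and SSB2 changed order between arrays, at 15998 and 11184 (SSB1) and 16336 and 9505 (SSB2).

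The 6 other pairs named, for the widest gap between their probe sets, each have 1 member near background, which the choice by gap favours. They were TSA1 and TSA2 (peroxiredoxins, 18923 and 10142 with 76.7 and 77.0), NDE1 and NDE2 (external NADH dehydrogenases, 1938 and 2008 with 10.4 and 17.2), and PMA1 and PMA2 (proton pumps, 13074 and 8086 with 59.9 and 70.5). GDH1 and GDH3 (glutamate dehydrogenases) gave 5121 and 4469 with 87.8 and 106. IDP1 and IDP2 (mitochondrial and cytosolic isocitrate dehydrogenases) gave 4249 and 3707 with 71.0 and 102, and RNR1 and RNR3 (large subunits of ribonucleotide reductase, RNR3 being induced by DNA damage) gave 2717 and 2367 with 119 and 149. In all, 12 pairs had 1 member near background.

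**Figure D2:**
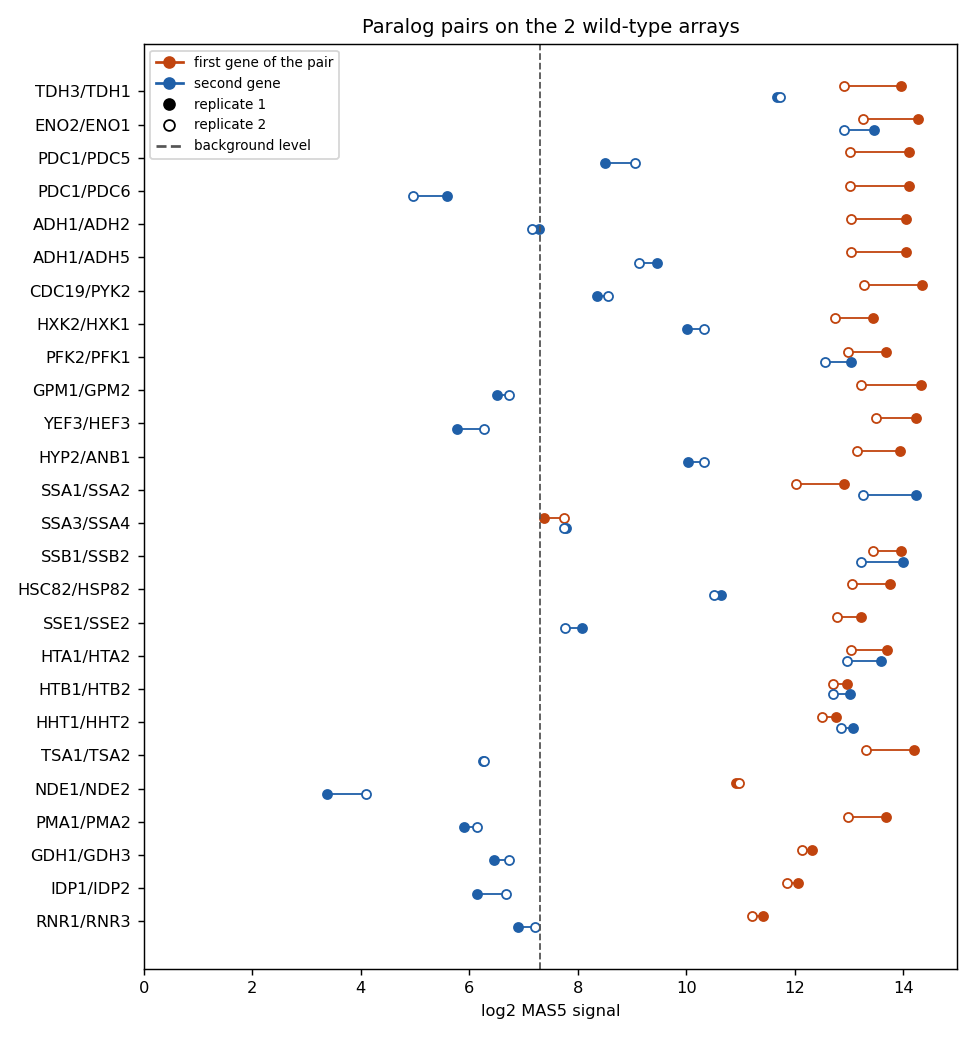
Log2 signals of the named paralog pairs on wild-type replicate 1 (filled) and replicate 2 (open), with the first gene of each pair in orange and the second in blue, and the background level dashed. PDC1, ADH1, GPM1, YEF3 and PMA1 lie far right of partners near or below the background level, while HTB1 with HTB2 and SSB1 with SSB2 overlap, as does HTA1 with the shared probe set of HTA2 (its own probe set, at 4531 and 4753, is not drawn).

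The wild-type arrays were then compared with each other. Over 5449 genes Spearman's rho was 0.988 and over the 4359 genes at or above background 0.980. These are correlations across genes, which are not independent. The median absolute log2 difference over the 4359 genes was 0.255, a factor of 1.19, and 95 percent of genes differed by less than 0.725. The difference followed brightness. In the brightest decile replicate 1 was higher for 88.1 percent of genes, with a median log2 difference (replicate 1 minus replicate 2) of 0.37, and in the next decile for 34.9 percent, with a median of -0.083. In the remaining deciles the median lay between -0.30 and -0.17.

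**Figure D3:**
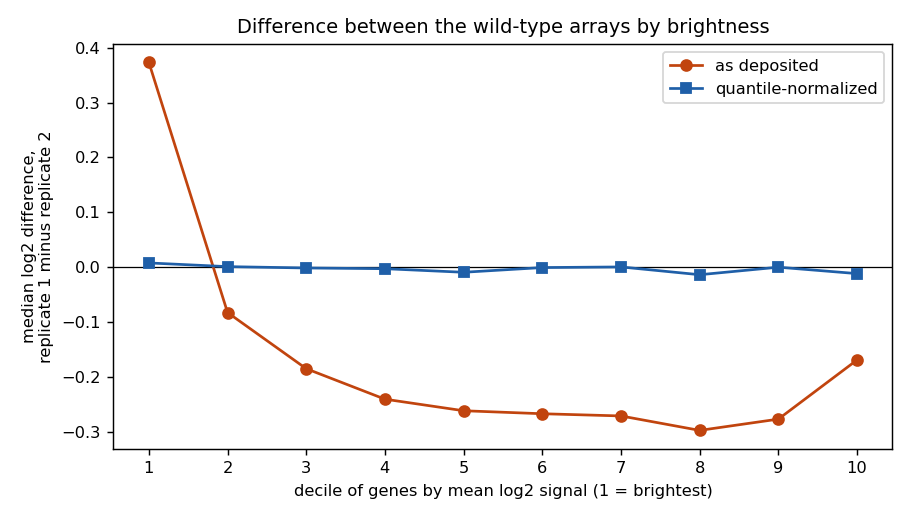
Median log2 difference between wild-type replicates 1 and 2 in each decile of genes by mean signal, as deposited (circles) and after quantile normalization of the arrays (squares), which gives both the same distribution. As deposited the median falls from 0.37 in the brightest decile to -0.30 in decile 8, and after normalization it lies between -0.014 and 0.0078 in all deciles.

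At 2-fold or more, 31 of 4359 genes (0.711 percent) were higher on replicate 1 and 10 (0.229 percent) on replicate 2. Of the 31, 25 were bright genes and 12 encode ribosomal proteins, the part of the range where replicate 1 reads higher as a whole. Both as deposited and after quantile normalization, 6 genes (0.138 percent) were higher on replicate 1 and 6 (0.138 percent) on replicate 2. For comparison, 92 genes (2.11 percent) were at least 2-fold higher on the ada1 deletion array than on the gcn5 deletion array and 223 (5.12 percent) at least 2-fold lower. A pair of arrays of 1 group gives no error for any single gene, so these 12 genes are described, not called changed.

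For the genes with the largest of these differences, a second probe set differed in the opposite direction. PAU23, a seripauperin of a subtelomeric family, gave 2712 and 179.8 on the probe set that stands for it, and 130.1 and 3274 on its second probe set, which similar genes share. The probe sets had each other's values on the other array. DOG2, a 2-deoxyglucose-6-phosphate phosphatase, gave 66.6 and 1040.2 on 1 probe set and 659 and 74.0 on the shared one. PAU17, another seripauperin, gave 1513 and 224 against 204 and 1561 on the shared one. TPO2, a polyamine exporter, gave 1447 and 182 against 261 and 1372 on the shared one, and AAD3, an aryl-alcohol dehydrogenase homologue, 87.2 and 336 against 313 and 73.7. In each gene the high value of 1 probe set on replicate 1 reappeared on the other probe set on replicate 2.

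The same crossing was looked for in every gene with several probe sets, after it had been seen in these. Of 47 such genes, 40 pairs of probe sets reached background on at least 1 wild-type array. A pair was called crossed where matching each probe set of 1 array with the other probe set of the second array shrank the summed absolute log2 difference, after quantile normalization, by at least 1. This held for 9 genes: the 5 above, YBR219C, AAD4, RPS23A and MST28. Their summed differences were 1.40 to 11.58 as labelled and 0.14 to 0.99 when crossed. In all 9 the pair joined a probe set of a single gene with a shared one. Most of the 40 pairs compared were of this kind, so it does not set the crossed genes apart.

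The deletion arrays, which the rule used only in the joint quantile normalization, showed the same crossing. With the ada1 deletion array in the place of replicate 1 and the gcn5 deletion array in that of replicate 2, the crossed match was closer for 9 of 9 genes, at 0.13 to 1.85 against 1.32 to 10.35 as labelled. YBR219C, a gene without a standard name, gave 699.9 and 13.4 against 10.2 and 699.5 on the shared probe set in wild type. On the ada1 and gcn5 deletion arrays it gave 559.7 and 18.2 against 15.8 and 593. AAD4, a relative of AAD3, gave 29.7 and 661 against 627 and 38.6 in wild type and 64.6 and 802 against 681 and 56.3 on those arrays. The arrays thus fell into the pairs that their ranges give, replicate 1 with the ada1 deletion and replicate 2 with the gcn5 deletion. Which of the arrays carries the intended assignment of values to probe sets cannot be told from the files, and how the crossing arose was not tested.

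**Figure D4:**
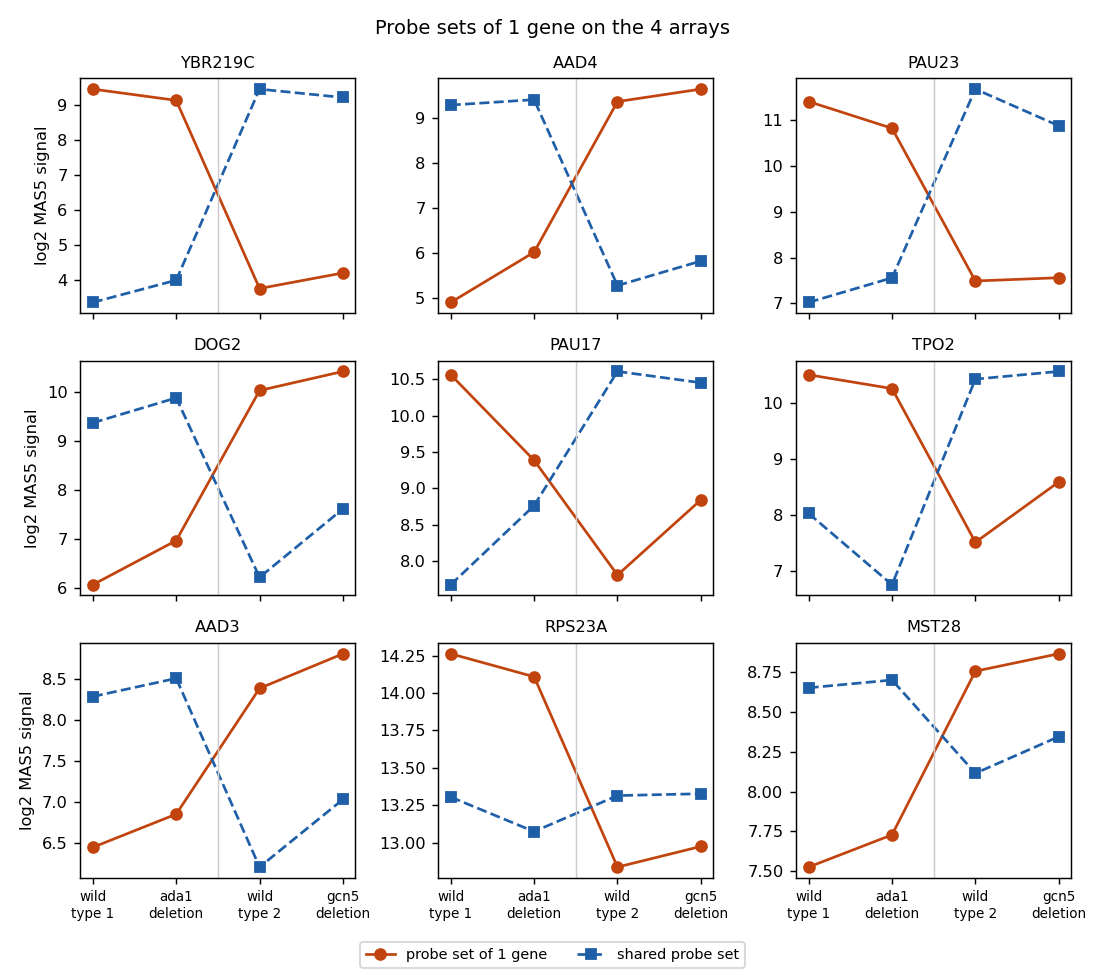
Log2 signals of the probe set of a single gene (circles) and of the shared probe set (squares) of 9 genes on the 4 arrays, ordered by array range; lines only join the values of a probe set. The probe sets trade places between the left pair of arrays (wild type 1 and ada1 deletion) and the right pair (wild type 2 and gcn5 deletion).

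The crossing touched a few of the values given above. RPS23A gave 19641 and 7323 on its own probe set and 10123 and 10192 on the shared one, so the changed order of RPS23A and RPS23B (12606 and 9305) rests on a crossed pair. With the higher probe set of a gene taken on each array, 106 paralog pairs kept their order. SSB1 showed a crossing under the limit, at 22000.3 and 7190.1 on its own probe set and 15998 and 11184 on the shared one. Of the other 31 pairs of probe sets compared, 15 matched better as labelled, 7 better when crossed and 9 equally well. Genes with a single named probe set could not be checked in this way.

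Without the crossed genes, 4 genes remained higher on replicate 1 and 3 on replicate 2. ARG1, argininosuccinate synthetase, gave 2099 and 805, a log2 difference of 1.38 as deposited and 1.54 after quantile normalization. A further 2 genes of the pathway stood in the same direction, ARG7 (ornithine acetyltransferase) at 848 and 443 and ARG3 at 171 and 84.6, below background on replicate 2. Other genes of the pathway differed by less, as ARG4 gave 1867 and 1362, CPA1 1809.7 and 1626, ARG8 579 and 586 and ARG2 201 and 189.5. These relatives were picked after ARG1 was seen. ARG1 gave 2055 on the ada1 deletion array and 5360.0 on the gcn5 deletion array.

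IMD2, an inosine monophosphate dehydrogenase that guanine nucleotide depletion induces, gave 889 and 439 on a shared probe set, a log2 difference of 1.02. Its paralogs IMD3 and IMD4 gave 6013 and 4738 (IMD3) and 7701 and 5196 (IMD4). PRM7, a pheromone-regulated membrane protein, gave 979 and 344 (log2 difference 1.51), and its second probe set was lower on replicate 2 as well, at 318 and 95.2. YMR030W-A gave 382 and 157, with replicate 2 near background.

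On replicate 2 the higher genes were PHO89, CLB6 and YBL100W-A. PHO89, a sodium-phosphate cotransporter of the PHO regulon, gave 1028 and 2285 (log2 difference -1.15), while PHO84 differed the other way as deposited, at 12610.3 and 7020.3, and by 0.26 after quantile normalization. CLB6, an S-phase cyclin, gave 234 and 588 (log2 difference -1.33), and its paralog CLB5 352 and 481 (log2 difference -0.45). YBL100W-A gave 299 and 818 on a shared probe set. PHO89 gave 36.8 on the ada1 deletion array and 250.0 on the gcn5 deletion array. CLB6 gave 60.3 on the ada1 deletion array and 244 on the gcn5 deletion array. In both cases the array paired with replicate 2 by range was the higher. YBL100W-A, IMD2 and PRM7 also followed the pairs by range. ARG1 and YMR030W-A (191 on the ada1 and 222 on the gcn5 deletion array) went the other way. The deletion arrays differ in genotype as well, and range and genotype cannot be told apart.

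**Figure D5:**
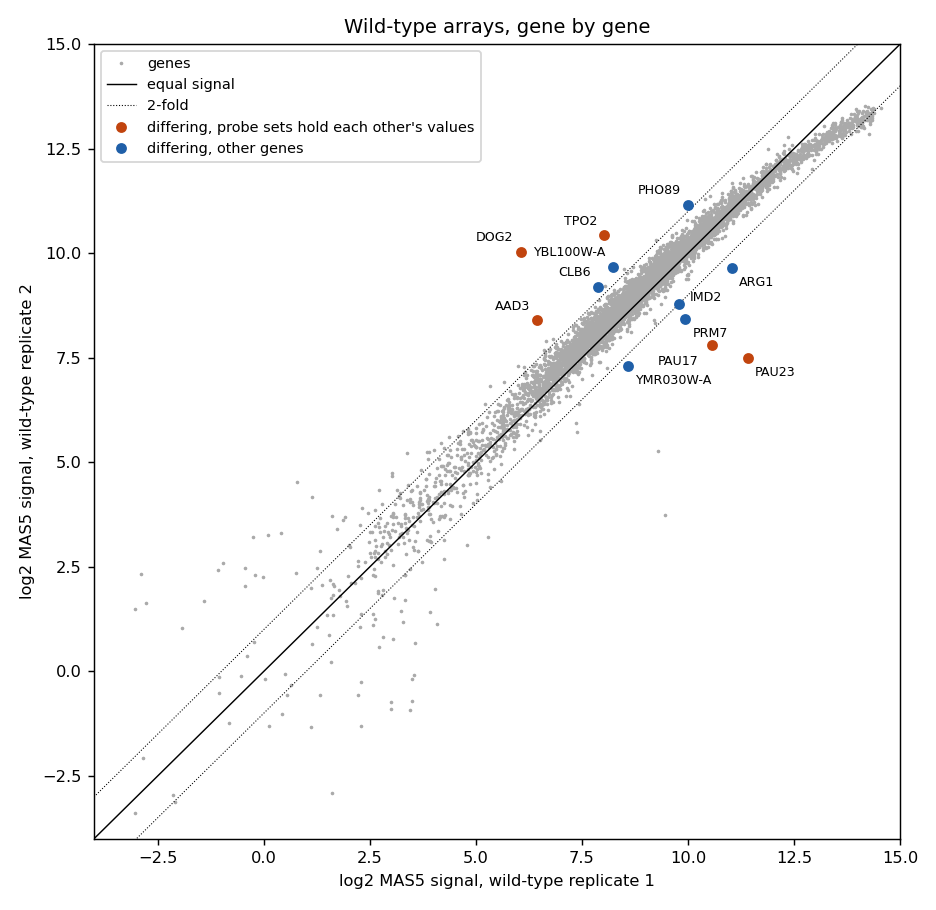
Log2 signal of 5449 genes on wild-type replicate 1 (x) and replicate 2 (y), with lines of equal signal and of 2-fold difference. The 5 differing genes whose probe sets hold each other's values (orange) lie farthest from the diagonal among the differing genes, and the cloud bends below the diagonal at the bright end, where replicate 2 stops at 11804.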

How the data were processed

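The deposited values are MAS5 signals, a linear intensity for each probe set, per the submitters' processing notes. No source used here gives the MAS5 version, its scaling target or detection calls. Of 5716 probe sets, 5498 had 1 gene symbol in the platform annotation and 218 had none; 12 symbols were updated from the RefSeq gene table of assembly R64, used for names and gene order only. Of 5449 genes, 47 had several probe sets and took the one with the highest mean log2 signal, and 106 are read by a probe set (_s_at or _x_at) that similar transcripts share. All columns belonged to the study's arrays. Analyses used Python 3.11.15, pandas 2.3.3, numpy 2.4.6 and statsmodels 0.14.6 (loess span 0.3). The ranking uses the signals as deposited. No test was possible with 1 group of 2 arrays, whose number limits the precision.

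The members, the 36 gene lists and the 139 paralog pairs were chosen with earlier results of these data known; the families by name, the gene classes and the check of crossed probe sets were added after the values were seen. Mitochondrial genome genes had no measured member. Named are the 20 brightest genes, up to 4 members of each list described, brightest for bright lists and dimmest for dim ones, all deleted and mating-type genes, the pairs of glycolysis, translation, histones and chaperones with the 6 widest other gaps, and the genes that differ by 2-fold or more both as deposited and after quantile normalization. Exceptions to a list and relatives of a named gene were picked after their values were seen.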

Additional observations from a re-analysis of the deposited data

Results flagged for a closer look

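Probe sets without a gene name enter none of the comparisons above. Of 218 such probe sets, 9 (4.13 percent) reached the limit of the bright genes, which the 3 genes deleted from BY4742 did not approach, and 72 (33.0 percent) were near background. The brightest, 1771085_at and 1770136_at, gave 19614 and 9879.7, and 18023 and 9400.2, on replicates 1 and 2. Their identity was not examined here.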

How the results depend on the processing

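With replicate 2 alone (without replicate 1) 13 of the 20 brightest genes were the same, and with replicate 1 alone 14. The other settings kept 15 to 20 of them, and the counts of bright ribosomal protein and glycolysis genes stayed within 1.5 times in all 6 settings tried. With background set at the highest signal of a deleted gene, 23.2, 26 meiotic, 2 a-specific and 0 maltose genes were near background. The count of genes higher on replicate 1 fell from 31 to 10 after quantile normalization and to 10 after a loess fit on mean signal, and rose to 108 with a common median and to 77 with no filter on dim probe sets. The count for replicate 2, 10 as deposited, became 6, 6, 5 and 63 in these settings and 16 with a filter at the 10th percentile. Taking the highest probe set of a gene on each array, chosen after seeing the crossed values, left 27 and 7 genes, and reversed PAU23, PAU17 and TPO2 to log2 differences of -0.27, -0.045 and 0.077, which follows from how the setting is made. DOG2 and AAD3 kept their direction there, at -0.66 and -0.10. The cause of the other shifts was not tested. Of 54 further counts of bright list members 9 moved by over 1.5 times, and of 49 counts near background 11 did. Leaving out an array leaves no difference between arrays to compute. No paired analysis was possible because the results come from 1 group and no test. Below background, signals have no reliable order.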

Other observations

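Large differences in opposite directions were also seen among probe sets without a gene name. Probe set 1777712_at gave 7471 on replicate 1 and 0.112 on replicate 2, with 6123 on the ada1 deletion array and 3.98 on the gcn5 deletion array. Probe set 1779889_s_at gave 0.0912, 5362, 0.0998 and 4870.4 on the same arrays in the same order. A second pair of unnamed probe sets, 1773061_s_at and 1776828_at, gave 1035 and 29.9, and 28.3 and 736, in wild type. On the ada1 and gcn5 deletion arrays they gave 999.7 and 139, and 64.3 and 3277, where the crossed values lay further apart. Whether the members of either pair read the same transcript was not tested. They were picked as the unnamed probe sets that differ by 4-fold or more between the wild-type arrays. Setting a probe set higher on replicate 1 beside one higher on replicate 2 gives opposite values by that choice.

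Among genes near background on the mean of both arrays, COS12, of a subtelomeric family, gave 167 and 53.2 on the wild-type arrays, 485 on the ada1 deletion array and 45.5 on the gcn5 deletion array. YDR524W-C gave 165 and 61.7 on the wild-type arrays, 155 on the ada1 deletion array and 61.7 on the gcn5 deletion array. Both have a single named probe set, and both were higher on the arrays of wider range. ARG3, also near background on the mean and with a single probe set, went the other way. It gave 171 and 84.6 on the wild-type arrays, 71.2 on the ada1 deletion array and 2310 on the gcn5 deletion array. Range and genotype cannot be told apart on the deletion arrays. The 6 genes among the 100 brightest that belong to none of the lists were TMA19, TSA1, IPP1 (inorganic pyrophosphatase, 16272 and 10159), AHP1 (a thiol peroxidase, 17034 and 8629), ASC1 (a protein of the small ribosomal subunit, 17132 and 8342) and YDR524C-B (17109.7 and 8549.6).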
